A study of Mus musculus with 3 samples.

Results

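Heat shock and chaperone genes were followed through single-cell RNA sequencing of mouse glomeruli, the filtering units of the kidney. The 10 genes were chosen by symbol from the 32285 genes counted in each library, and each symbol matched 1 row. They were Hspa1a and Hspa1b (stress-inducible Hsp70), Hspa8 (constitutive Hsp70), Hspa5 (the Hsp70 of the endoplasmic reticulum, BiP), Hsp90aa1 and Hsp90ab1 (the more inducible and the constitutive cytosolic Hsp90), Hspb1 (a small heat shock protein), Hsph1 (Hsp110, a nucleotide exchange factor for Hsp70), Dnajb1 (an Hsp40 co-chaperone of Hsp70) and Hspd1 (Hsp60 of mitochondria). All 10 reached 50 UMIs over both libraries, the minimum for a ratio, in each of the classes compared.

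Each of 3 groups was 1 library: a control group, an untreated MRL/lpr group and an MRL/lpr group given human umbilical cord mesenchymal stem cells (MRL/lpr + hUC-MSCs). MRL/lpr mice carry the lpr allele of Fas on the MRL background and develop lupus nephritis. Per the study's methods they entered the experiment at about 16 weeks of age, and the treated and untreated libraries were described at 21 days. Treated mice were given 800000 cells each by tail vein. The study's MRL/lpr and MRL/MpJ mice were female, and MRL/MpJ mice were the controls of its other experiments in MRL/lpr mice. The labels give neither the strain nor the age of the control mice, nor how many mice made up a library, so strain, disease, age and preparation cannot be told apart between MRL/lpr and control. Kidneys were digested with collagenase, glomeruli were enriched and then dissociated, and all 3 libraries share that handling. With 1 library per group no test between groups was possible. Treatment, mouse and preparation cannot be told apart between the treated and untreated libraries. The intervals given are 95% intervals that cover counting error only, since cells of 1 library are not replicates.

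Chaperones bind unfolded stretches of protein and help them fold, assemble or be degraded. When unfolded protein builds up in the cytosol, heat shock factor 1 binds heat shock elements in promoters and drives the inducible genes, whereas Hspa8 and Hsp90ab1 are made at all times. Unfolded protein in the endoplasmic reticulum drives Hspa5 through a separate element. Warming and enzymatic dissociation of tissue are known to switch on the inducible genes, together with immediate-early genes such as Fos and Jun.

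Hspa1a (chr17:34969190-34972156, minus strand) and Hspa1b (chr17:34956436-34959238, minus strand) lie 9952 bases apart, and both are protein-coding. The RefSeq table of promoters (build GRCm38.p6) held entries for 7 of the 10 genes. Hspa8, Hsp90aa1 and Hsp90ab1 had none, so no promoter of a constitutive cytosolic form was searched. Sequences are shown for the members in which an element was found. Searched on both strands, the heat shock element was taken as 2 units, GAANNTTC or TTCNNGAA, which occurred in 12.8% of all 32851 promoters, and as 3 units, GAANNTTCNNGAA or TTCNNGAANNTTC, in 0.466%. The 2-unit form is part of the 3-unit form. The endoplasmic reticulum stress element, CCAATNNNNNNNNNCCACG or its reverse complement, occurred in 0.113%. The 250 bases before the start of Hspa1a (chr17:34972157-34972406), Hspa1b (chr17:34959239-34959488) and Hspb1 (chr5:135887669-135887918, plus strand) are given 5′ to 3′ on the strand of the gene, with 2-unit heat shock elements in capitals.
Hspa1a: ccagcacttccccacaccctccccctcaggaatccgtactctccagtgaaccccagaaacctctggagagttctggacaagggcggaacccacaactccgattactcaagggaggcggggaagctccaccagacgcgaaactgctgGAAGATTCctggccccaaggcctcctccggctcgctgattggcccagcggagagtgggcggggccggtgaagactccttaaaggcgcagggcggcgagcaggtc
Hspa1b: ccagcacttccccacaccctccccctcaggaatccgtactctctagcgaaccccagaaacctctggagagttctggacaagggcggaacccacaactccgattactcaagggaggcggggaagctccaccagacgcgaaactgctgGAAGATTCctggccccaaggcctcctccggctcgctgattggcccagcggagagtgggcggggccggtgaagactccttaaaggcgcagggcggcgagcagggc
Hspb1: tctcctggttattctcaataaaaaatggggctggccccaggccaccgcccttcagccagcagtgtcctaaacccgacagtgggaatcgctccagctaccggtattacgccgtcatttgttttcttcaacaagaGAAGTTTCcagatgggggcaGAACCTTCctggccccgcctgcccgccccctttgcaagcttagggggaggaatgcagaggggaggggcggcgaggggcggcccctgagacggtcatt
The Hspa1a and Hspa1b stretches were 98.8% identical, with 3 mismatches and no gap, and each held 1 element, 104 bases before the start. Hspb1 held 2, at 117 and 97 bases. Shorter stretches of 29 or 30 bases show the elements of Hspd1 (chr1:55088053-55088082, minus strand, before its second start), Hsph1 (chr5:149636351-149636380, minus strand) and Hspa5 (chr2:34772020-34772048, plus strand), again in capitals.
Hspd1: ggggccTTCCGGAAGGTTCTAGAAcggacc
Hsph1: gggtagaatctTTCTCGAAggctcgagaag
Hspa5: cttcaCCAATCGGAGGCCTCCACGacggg
Overlapping units made up 2 matches to the 3-unit heat shock element in Hspd1, and the match in Hsph1 began 33 bases before its first start and 54 before its second. The capitals of Hspa5 mark the endoplasmic reticulum stress element, which began 65 bases before the start, and no heat shock element was found in its 250 bases. Neither element was found in the 250 bases before the Dnajb1 starts. A match describes letters and not a site that was shown to be bound. Of the 90-base windows in the last 500 bases of the Hspa1a and Hspa1b transcripts, 0% occurred unchanged in another gene. In contrast 49.9% of such windows of Hspa8, 34.9% of Hspb1, 32.8% of Hsp90aa1 and 18.6% of Hspd1 also occurred in other annotated genes, mostly a pseudogene of each that was not a row of the files, so their counts depend on how reads with several matches were treated.

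The kept barcodes, with at least 1000 UMIs and at most 10% mitochondrial UMIs, numbered 11018 in control, 14109 in MRL/lpr and 16586 in MRL/lpr + hUC-MSCs, with a median of 5069, 3716 and 2727 UMIs. Between 35 and 61 barcode sequences were shared by a pair of libraries. Cells were placed in classes by marker genes, and 93.1%, 79.1% and 69.8% fell in exactly 1 class. Of 6 further markers kept for checking each class, 4 to 6 stood at over 2 times the level of the library's other cells, and no class had markers of another among its 10 leading genes. The libraries differed in cell makeup: endothelial-like cells numbered 5754, 4365 and 5533 (control, MRL/lpr, MRL/lpr + hUC-MSCs, the order used throughout), mesangial-like 1117, 1772 and 1855, podocyte-like 2479, 1017 and 222, proximal tubule-like 50, 521 and 66, mononuclear phagocyte-like 85, 1738 and 2161, and T and NK-like 143, 849 and 640. Erythroid-like cells were left out of comparisons between libraries and of the levels by class because an estimated 45.4% of their UMIs in the treated library came from free RNA. Fas did not check the labels. At 381, 437 and 443 CPM in endothelial-like cells, it was higher in both MRL/lpr libraries than in control. CPM is UMIs per 1000000 UMIs of the class.

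In the control library the inducible genes were concentrated in the resident cells of the glomerular tuft. Levels are given in CPM and are compared between classes and libraries for 1 gene at a time, since genes may be captured with unequal efficiency. Hspa1a stood at 7061 (mesangial-like) and 6837 (endothelial-like), followed by 1856 in podocyte-like cells and 236 to 684 in the distal nephron, phagocyte, proximal tubule and T and NK classes. The 10 genes together made up 2.87% of all UMIs of control endothelial-like cells, against 0.537% in T and NK-like cells. Hspa1b followed the same leading order, with 2978 in mesangial-like, 2063 in endothelial-like and 622 in podocyte-like cells.

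The partners of Hsp70 showed a like spread. Dnajb1 reached 1709 in mesangial-like and 1557 in endothelial-like cells, against 64.6 in proximal tubule-like and 231 in podocyte-like cells. Hsph1 was 550.0 and 468 in the first pair of classes and at most 125 in the other classes. Hspb1, which also stabilises actin filaments, differed in that endothelial-like cells (6365) exceeded mesangial-like cells (3136) and podocyte-like cells (1336).

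Among the 7 classes Hspa8 ranged from 1047 in distal nephron-like to 5017 in endothelial-like cells, and Hsp90ab1 from 1202 in proximal tubule-like to 4120 in endothelial-like cells, where the mesangial-like level was 4107. Hsp90aa1 was 2332 in mesangial-like, 1257 in endothelial-like and 414 to 593 in the remaining classes.

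Hspa5 and Hspd1, the organelle chaperones, were ordered differently. Hspa5 was highest in mononuclear phagocyte-like cells (1073) and next in podocyte-like cells (942), and in the MRL/lpr libraries podocyte-like cells led (674 and 644). Hspd1 was highest in proximal tubule-like cells, a class rich in mitochondria, in all 3 libraries (915, 402 and 321), against 308, 109.7 and 85.7 in endothelial-like cells. The proximal tubule-like values of the control rest on 50 cells.

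**Figure D1:**
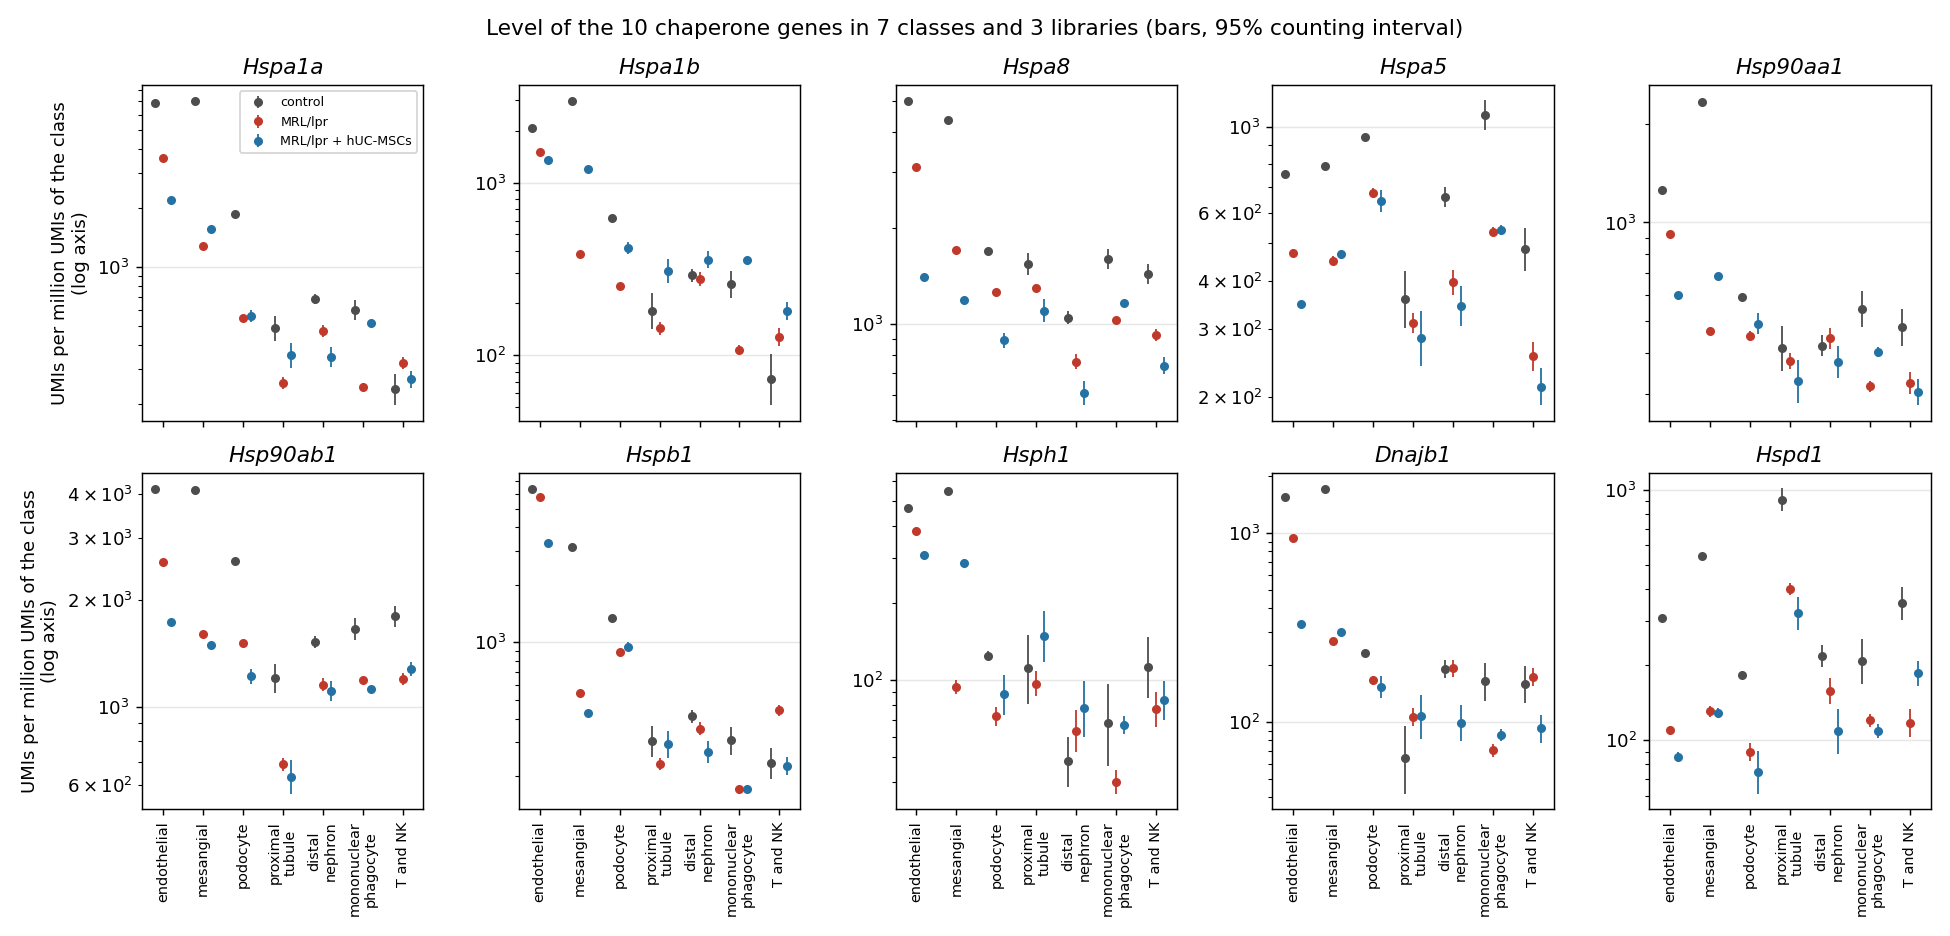
Level of each of the 10 genes (vertical log axis, CPM) in 7 classes (horizontal axis) of the control, MRL/lpr and MRL/lpr + hUC-MSCs libraries, with points for levels and bars for 95% counting intervals. Hspa1a, Hspa1b, Hspb1 and Dnajb1 were highest in endothelial-like or mesangial-like cells, whereas Hspd1 was highest in proximal tubule-like cells.

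The first comparison, MRL/lpr over control, asks how chaperone transcripts differ between the diseased and the control glomeruli. In mesangial-like cells, the contractile cells that hold the capillaries together, Hspa1a was 7061 in control and 1275 in MRL/lpr, and Hspa1b was 2978 and 385. The sum of both genes differed by a log2 ratio of -2.60 (-2.62 to -2.57). Of the 10 genes, 9 were at least 2-fold lower, against 4.79% of the 12143 genes with 50 or more UMIs in this class. The exception was Hspa5, at 793 and 451 (-0.81, -0.86 to -0.77). Dnajb1 (-2.67), Hsph1 (-2.55), Hspb1 (-2.53), Hsp90aa1 (-2.32) and Hspd1 (-2.06) lay beyond 4-fold with Hspa1a and Hspa1b, while Hspa8 (-1.35) and Hsp90ab1 (-1.36) lay between 2-fold and 4-fold. The median of the 10 genes was -2.39 and that of all genes -0.01. Depth and free RNA moved with the library here: the median mesangial-like cell had 9354, 3831 and 4459 UMIs, and free RNA would give 4.44%, 16.5% and 10.4% of the level of the Hspa1a and Hspa1b sum. The makeup of the class differed too. Its 10 leading genes included Bgn and Hopx in control, Tnfsf8 and Adamts5 in MRL/lpr and Col12a1 and Col8a1 in the treated library. The part of depth, free RNA and makeup in the ratios was not tested, and with free RNA subtracted the ratio of the sum was -2.70.

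Endothelial-like cells, which line the glomerular capillaries, also had lower levels of all 10 genes in MRL/lpr, by smaller ratios. The sum of Hspa1a and Hspa1b was 8901 in control and 5104 in MRL/lpr (-0.80, -0.81 to -0.79). Every interval lay below 0, from Hspb1 (6365 and 5781, -0.14) to Hspd1 (308 and 109.7, -1.49), with a median of -0.68 beside 0.03 for all genes, of which 47.6% had a ratio below 0. Only Hspd1 was at least 2-fold lower, 1 of 10 against 4.86% of all genes. For the sum, the endothelial-like minus the mesangial-like log2 ratio was 1.79 (1.77 to 1.82), so the mesangial-like ratio was the lower of the pair.

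Podocyte-like cells, the epithelial cells outside the capillary wall, had 3 of the 10 genes at least 2-fold lower (4.61% of all genes). These were Hspa1a (1856 and 545, -1.77), Hspa1b (622 and 250.2, -1.31) and Hspd1 (183 and 89.7, -1.03). In mononuclear phagocyte-like cells 4 of 10 were at least 2-fold lower (8.37% of all genes), namely Hspa1a (604 and 244), Hspa1b (257 and 107), Dnajb1 (165 and 70.8) and Hspa5 (1073 and 536). The control value there rests on 85 cells, and free RNA would give 28.5% of the level of the Hspa1 sum in control and 61.1% in MRL/lpr. With free RNA subtracted the ratios moved from -1.31 to -2.02 for Hspa1a, from -1.26 to -2.20 for Hspa1b and from -1.22 to -2.09 for Dnajb1, and that of Hspa5 was -1.02. Hsph1, which was not among the 4, moved from -0.76 to -1.09, and no value was left for Hspb1 (-0.85 before). Before subtraction, in proximal tubule-like cells (3.48% of all genes) and in T and NK-like cells (4.74%), Hspd1 alone was at least 2-fold lower, at -1.19 and -1.59. With free RNA subtracted, in proximal tubule-like cells Hspa1a moved from -0.94 to -1.77, Hspb1 from -0.40 to -2.63 and Dnajb1 from 0.72 to 1.05. In T and NK-like cells Hspa5 moved from -0.92 to -1.30 and Hspb1 from 0.91 to 1.46.

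Among the 7 classes, T and NK-like cells alone had a higher sum of Hspa1a and Hspa1b in MRL/lpr (309 and 449.5, 0.54, 0.29 to 0.80), and Hspb1 was higher too (0.91). Free RNA was estimated at 7.15% of UMIs in control and 19.8% in MRL/lpr T and NK-like cells. At those shares, free RNA alone would give 387 and 398 CPM of Hspa1a plus Hspa1b, which is 125% and 88.6% of the level found. In the treated library the share was 81.7%. For Hspb1 it was 81.2%, 76.4% and 108%. The T and NK-like levels of these genes were thus near the estimated free RNA level, and the part of free RNA in their ratios was not tested.

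**Figure D2:**
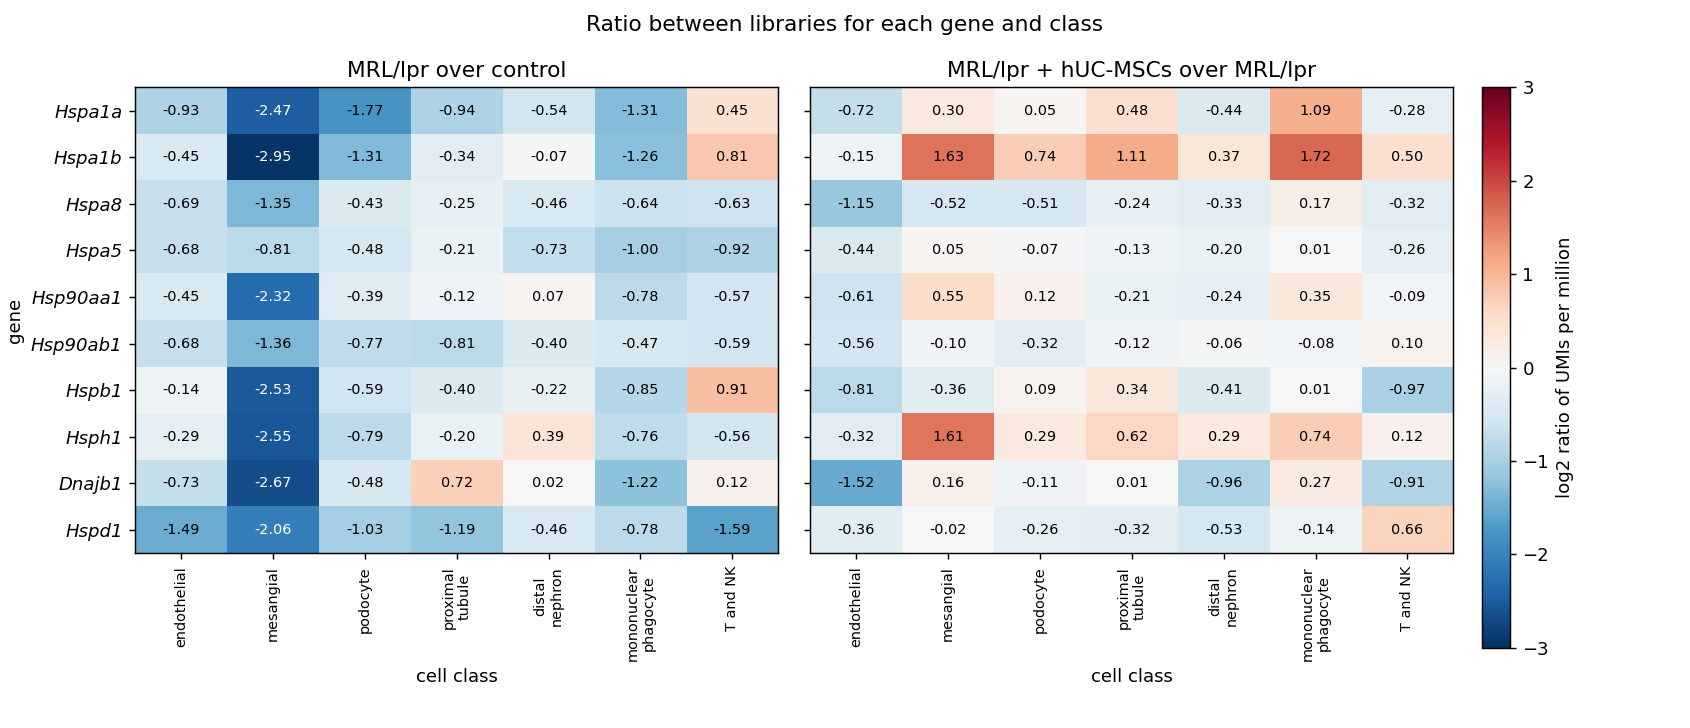
Log2 ratio of CPM (colour and printed value) for each of the 10 genes (rows) in 7 classes (columns), for MRL/lpr over control on the left and MRL/lpr + hUC-MSCs over MRL/lpr on the right. The mesangial-like column on the left holds values from -2.95 to -0.81, and on the right Hspa1b and Hsph1 stand at 1.63 and 1.61 in mesangial-like cells.

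The second comparison, MRL/lpr + hUC-MSCs over untreated MRL/lpr, sets the same transcripts of the treated library against those of the untreated one. It shares the untreated library with the first, so the ratios of both comparisons are not independent. Endothelial-like cells had lower levels of all 10 genes in the treated library, where 36.0% of all genes had a ratio below 0. The Hspa1a and Hspa1b sum was 5104 in MRL/lpr and 3541 in the treated library (-0.53, -0.54 to -0.51), and this ratio was -1.25 under the study's limit of 5% ribosomal UMIs, which left 45, 42 and 60 endothelial-like cells. Dnajb1 (942 and 329, -1.52) and Hspa8 (3109 and 1405, -1.15) were at least 2-fold lower, 2 of 10 against 3.19% of all genes, and Hspb1 followed (5781 and 3297, -0.81). Hspa1b was the least different (1508 and 1356, -0.15), and its direction depended on the cells taken, as the subsets by Ehd3 and Plvap show. The median of the 10 was -0.59 and that of all genes 0.12. Their share of all endothelial-like UMIs was 2.87%, 1.94% and 1.17% in control, MRL/lpr and treated cells.

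In mesangial-like cells some members were higher and others lower in the treated library. Hspa1b was 385 in MRL/lpr and 1194 in treated cells (1.63, 1.58 to 1.68), and Hsph1 was 94.1 and 288 (1.61, 1.51 to 1.71). These were the 2 of 10 that were at least 2-fold higher, against 3.31% of all genes. Hsp90aa1 (467 and 685, 0.55) and Hspa1a (1275 and 1566, 0.30) were higher by less, whereas Hspa8 (1707 and 1191, -0.52), Hspb1 (544 and 425, -0.36) and Hsp90ab1 (1602 and 1493, -0.10) were lower and Hspd1 was 130.3 and 128.5. The intervals of 5 genes lay above 0, with Dnajb1 (269 and 301, 0.16), those of 3 lay below 0 and those of 2 held 0. Among all genes 35.5% had a ratio below 0, and the median of the 10, 0.11, was close to the 0.13 of all genes. Each of the 5 higher genes remained under its control level.

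Mononuclear phagocyte-like cells had the largest ratio for the Hspa1 sum among the 7 classes, 351 in MRL/lpr and 872 in treated cells (1.31, 1.25 to 1.37), beside 862 in control. Hspa1a and Hspa1b were 2 of 10 at least 2-fold higher (1.77% of all genes), while Hspa5 was 536 and 541. Free RNA would give 25.8% of the treated level of the sum, and with it subtracted the ratio was 2.23. Subtraction also moved Hsph1 from 0.74 to 1.02 and Dnajb1 from 0.27 to 0.99. The makeup of the class differed too, since its 10 leading genes included Il1b and Cd83 in control, Cd5l and Fcna in MRL/lpr and Mmp12 and Trem2 in the treated library, and the part of this in the ratios was not tested. In proximal tubule-like cells Hspa1b alone was at least 2-fold higher (143 and 308, 1.11; 2.48% of all genes), with 66 treated cells and free RNA at 59.6% and 54.5% of the level of the Hspa1 sum. Podocyte-like cells had 795 and 982 for the sum (0.30, 0.22 to 0.39), with 222 treated cells and free RNA at 29.3% and 32.3%. The distal nephron-like sum was 746 and 704 (-0.08, -0.23 to 0.06), an interval that held 0, and it was -0.32 with free RNA subtracted. Within that sum Hspa1a was lower (-0.44, -0.64 to -0.24) and Hspa1b higher (0.37, 0.16 to 0.58). In this class the intervals of 7 of the 10 genes lay below 0, that of 1 above 0 and those of 2 held 0, where 56.2% of all genes had a ratio below 0. The treated values rest on 76 cells.

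Immediate-early genes are the usual mark of handling stress, and 13 of them were summed beside the chaperones. In endothelial-like cells they made up 40723, 36641 and 14112 CPM, and in mesangial-like cells 38090, 34285 and 9787. In the treated over untreated ratio 12 of the 13 were at least 2-fold lower in endothelial-like cells (3.19% of all genes) and 13 of the 13 in mesangial-like cells (3.91%), with medians of -1.37 and -1.91. In that comparison they were lower where the chaperones were lower, in endothelial-like cells, and also in mesangial-like cells, where Hspa1b and Hsph1 were higher. In MRL/lpr over control their medians were 0.005 and 0.12 in these classes, where the medians of the 10 chaperone genes were -0.68 and -2.39. In podocyte-like cells 11 of the 13 were at least 2-fold higher in MRL/lpr than in control (7.43% of all genes), where Hspa1a was lower. There 10 of the 13 were at least 2-fold lower in the treated than in the untreated library (2.26%). In T and NK-like cells 7 of the 13 were at least 2-fold higher in MRL/lpr (10.1% of all genes), where the Hspa1 sum, near the free RNA level, was higher. In the treated library 8 of the 13 were at least 2-fold lower in that class (5.56%). Free RNA was estimated at 7.15%, 19.8% and 16.2% of the UMIs of T and NK-like cells. It was not subtracted from the immediate-early genes in any class, so its part in their levels and ratios was not tested. The part of the immediate-early genes in the chaperone ratios was not tested.

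The inducible forms were then set against the constitutive ones within each class, which needs no scaling between libraries. Because 2 genes may be captured with unequal efficiency, the ratios are compared between libraries and classes and not with 1. In endothelial-like cells there were 1.77, 1.64 and 2.52 UMIs of Hspa1a plus Hspa1b for each UMI of Hspa8. The step to MRL/lpr was -0.11 in log2 (-0.13 to -0.09), and the step to the treated library was 0.62 (0.59 to 0.64), with Hspa8 lower by more than the inducible pair. Under the limit of 5% ribosomal UMIs the first step was -0.44 (-0.81 to -0.07) and the second turned to -0.11 (-0.56 to 0.34). In mesangial-like cells the ratio was 2.31, 0.973 and 2.32, a step of -1.24 (-1.28 to -1.21) to MRL/lpr and of 1.25 (1.21 to 1.29) to the treated library. Podocyte-like cells had 1.46, 0.630 and 1.11, mononuclear phagocyte-like cells 0.538, 0.341 and 0.752, and proximal tubule-like cells 0.432, 0.306 and 0.602. In each of these 5 classes the MRL/lpr library had the lowest ratio, and this was so for free RNA as well (1.99, 1.34 and 1.91). Distal nephron-like cells (0.930, 0.981 and 1.16) had the lowest ratio in control. Their step to MRL/lpr was 0.08 (-0.07 to 0.22), an interval that held 0. Control was also lowest in T and NK-like cells (0.215, 0.486 and 0.602), whose Hspa1 level was near that estimated for free RNA.

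Hsp90aa1 over Hsp90ab1 was also lowest in MRL/lpr in mesangial-like cells, with 0.568 in control, 0.292 in MRL/lpr and 0.459 in the treated library, where it stayed below control. In endothelial-like cells it was 0.305, 0.359 and 0.346, so the control was lowest there. Podocyte-like cells likewise had their lowest value in control (0.230, 0.298 and 0.404), as did proximal tubule-like (0.344, 0.552 and 0.518) and distal nephron-like cells (0.277, 0.384 and 0.339). Mononuclear phagocyte-like cells were lowest in MRL/lpr, as mesangial-like cells were (0.329, 0.266 and 0.358). In T and NK-like cells the ratio was 0.267, 0.271 and 0.238, and the intervals of both steps held 0.

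Within the inducible pair, Hspa1b over Hspa1a was highest in the treated library in each of the 7 classes, at 0.302, 0.419 and 0.621 in endothelial-like, 0.422, 0.302 and 0.763 in mesangial-like and 0.425, 0.439 and 0.683 in mononuclear phagocyte-like cells. It was highest in the treated library in free RNA as well (0.338, 0.457 and 0.566). This pair was chosen for display after its values were seen.

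**Figure D3:**
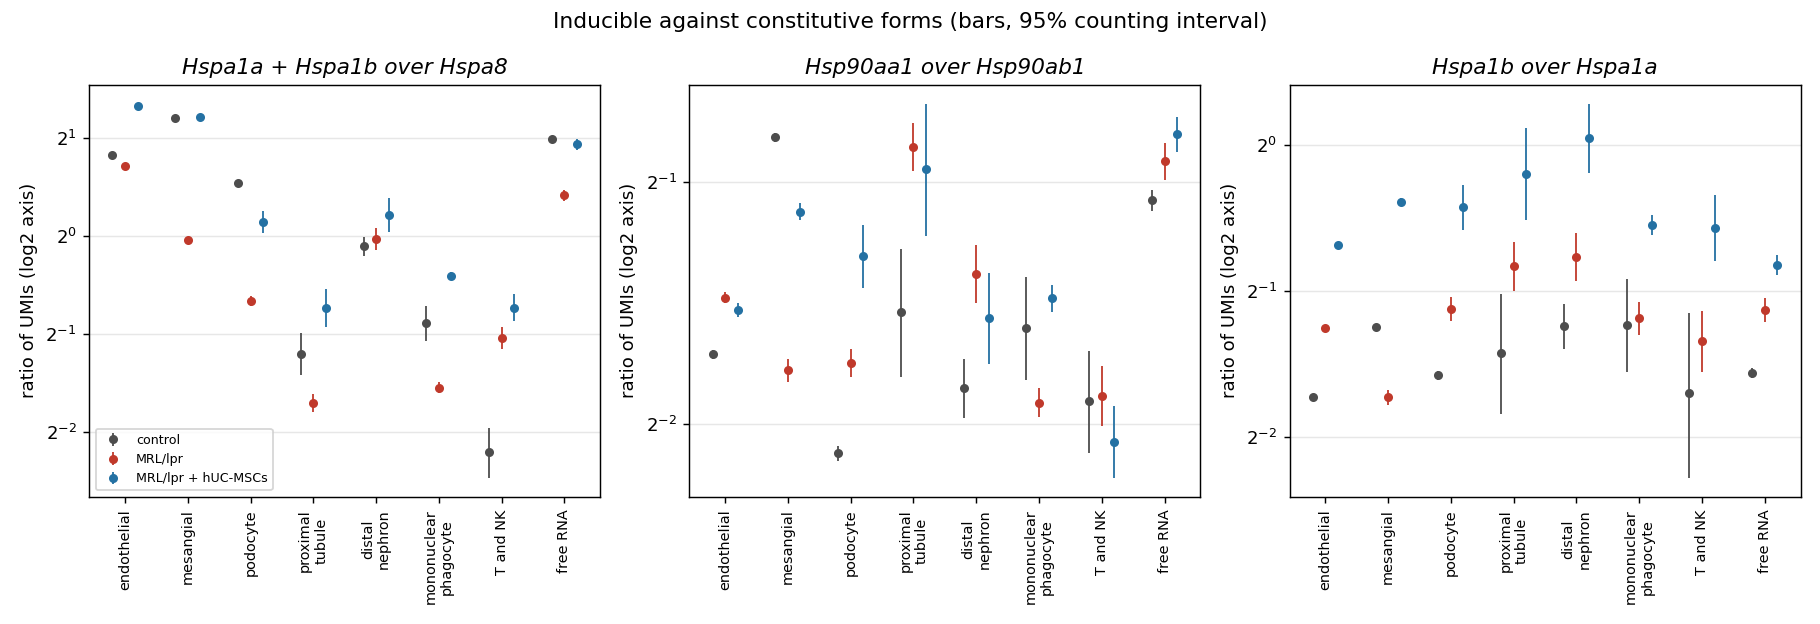
Ratio of UMIs (vertical log2 axis) for Hspa1a plus Hspa1b over Hspa8, Hsp90aa1 over Hsp90ab1 and Hspa1b over Hspa1a in 7 classes and in free RNA (horizontal axis), by library, with bars for 95% counting intervals. In mesangial-like cells the first ratio stood at 2.31 in control, 0.973 in MRL/lpr and 2.32 in the treated library.

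Most endothelial-like and mesangial-like cells held UMIs of the inducible pair. Per 10000 UMIs of a cell, the median endothelial-like cell had 81.5, 44.1 and 29.8 UMIs of Hspa1a plus Hspa1b, with the 10th to 90th percentiles between 18.6 and 164 in control, 6.55 and 95.4 in MRL/lpr and 4.06 and 66.2 in the treated library. The median mesangial-like cell had 90.1, 12.6 and 24.3, and the 10th percentile of control cells (30.8) lay above the 75th of MRL/lpr cells (22.0). Podocyte-like cells were more uneven: in control the median was 9.91, the 25th percentile 2.59 and the 90th 61.2. The median mononuclear phagocyte-like cell had 4.32, 1.73 and 4.71, and the 10% of cells with the most UMIs of the pair held 41.8%, 54.7% and 47.0% of them.

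**Figure D4:**
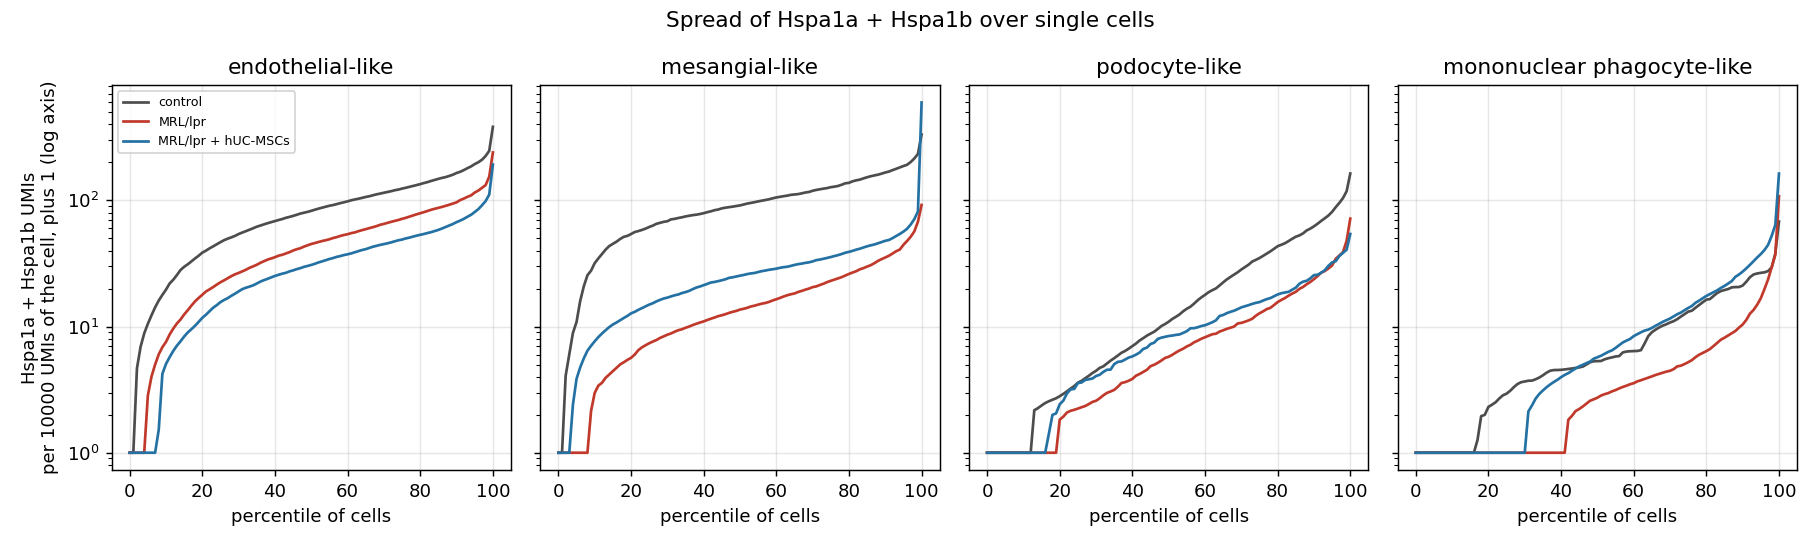
Hspa1a plus Hspa1b UMIs per 10000 UMIs of a cell, plus 1 (vertical log axis), against the percentile of cells (horizontal axis) in 4 classes, 1 line per library. The control line lies above both others over most endothelial-like and mesangial-like cells, with medians of 81.5 and 90.1 UMIs per 10000.

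Hspa1a UMIs were found in 98.2%, 93.04% and 87.4% of endothelial-like cells, and in 93.2%, 83.6% and 74.5% after each cell was thinned to 1000 UMIs. The thinned shares of mesangial-like cells were 94.1%, 62.1% and 71.1%. T and NK-like cells, whose Hspa1 level was near that estimated for free RNA, gave 16.8%, 17.2% and 18.1% when thinned and 38.5%, 29.1% and 28.4% before, at median depths of 2733, 1942 and 1796 UMIs against 4292, 3708 and 2903 in endothelial-like cells. Over thinned endothelial-like cells (5754, 4365 and 5533), Pearson's r of Hspa1a with Hspa1b on the log scale was 0.47, 0.43 and 0.39. It was 0.46, 0.39 and 0.41 with Hspb1, 0.52, 0.38 and 0.40 with the immediate-early gene Fos, and 0.06, 0.01 and -0.05 with Hspa5. Hspa5 had no UMI in 592, 1053 and 2099 of these cells even before thinning. Few UMIs per cell lower r, so r is not compared between genes of unlike level. These cells share a library, and the values are descriptions.

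Endothelial-like cells with Ehd3, a marker of glomerular capillaries, and without Plvap, a marker of other vessels, numbered 4985, 3396 and 3648. Their Hspa1a plus Hspa1b level was 9189, 5413 and 3630. Cells with Plvap and without Ehd3 (124, 133 and 288) had 5413, 3119 and 3137. Hence the first set was higher in each library, and both sets had their highest level in control. In the second set the sum did not differ between the untreated and treated libraries beyond counting error, while Hspa1b (822 and 1139) and Hsph1 (162 and 248) were higher in the treated one and Hsp90aa1 had 476 and 533 with overlapping intervals. Hspa1b was also higher in treated cells with neither marker (911 and 1176), and had 1353 and 1382 in cells with both. Hsph1 had 231 and 268 in cells with neither, with overlapping intervals. The lower levels of all 10 genes in the treated library therefore describe the class as a whole and the first set, where Hspa1b was 1605 and 1388. They do not describe each of the smaller sets. Hspb1 did not follow the order of the sets in all libraries, at 6335, 5989 and 3331 in the first set and 6870, 4726 and 3721 in the second.

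Other chaperones were described as lists, by role. Of 22 cytosolic genes of the Hsp70, Hsp90 and Hsp40 systems, 4 were at least 2-fold lower in MRL/lpr endothelial-like cells (4.86% of all genes), with a median of -0.59. They were Dnaja1, an Hsp40 (2903 and 1257, -1.21), Bag3, an Hsp70 co-chaperone that is itself a heat shock gene (299 and 130.2, -1.20), Chordc1, an Hsp90 co-chaperone (133 and 62.1, -1.10), and Hspa2 (43.4 and 21.2, -1.03). In mesangial-like cells 5 of the 22 were lower by at least 2-fold (4.79%), led by Dnaja1 (-1.78), Bag3 (-1.72) and Chordc1 (-1.50). The median there was -0.45, against -2.39 for the 10 genes. Dnaja1 was also at least 2-fold lower in treated endothelial-like cells (1257 and 570, -1.14), and it was the only one of the 22, where 3.19% of all genes were lower to that degree.

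The 17 genes of the endoplasmic reticulum had medians of 0.04 and -0.19 in endothelial-like cells. None was at least 2-fold lower there, against 4.86% and 3.19% of all genes, and 1 of 17 was in MRL/lpr mesangial-like cells (4.79%), Dnajc3, which restrains the kinase PERK (204 and 95.9, -1.09). Hspe1, the mitochondrial partner of Hspd1, was 865 and 295 in mesangial-like cells (-1.55) and 562 and 324 in endothelial-like cells (-0.80), while the median of the 7 mitochondrial genes was -0.01 and -0.30. None of the 8 subunits of the cytosolic chaperonin TRiC was at least 2-fold lower in endothelial-like cells (4.86% and 3.19% of all genes) or in mesangial-like cells (4.79% and 3.91%). Their medians were -0.29 and -0.25 in endothelial-like cells, beside 0.03 and 0.12 for all genes. In mesangial-like cells they were -0.41 and -0.06, beside -0.01 and 0.13 for all genes. Among 7 other genes listed as small heat shock proteins, which are Cryab and genes with Hspb symbols, 4 were measured in each of these classes in the first comparison. Hspb11 was listed by its symbol. In MRL/lpr mesangial-like cells Cryab was 1 of 4 at least 2-fold lower (156 and 50.3, -1.63; 4.79% of all genes), Hspb8 was lower by less (-0.75) and Hspb11 was higher (27.6 and 49.8, 0.85). In MRL/lpr endothelial-like cells the intervals of 3 of the 4 lay above 0 and none below. The median of the 4 was 0.45, beside 0.03 for all genes, of which 47.6% had a ratio below 0. Hsf1, which encodes heat shock factor 1, was 17.9 and 17.6 in endothelial-like cells and 17.4 and 18.8 in mesangial-like cells of control and MRL/lpr.

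**Figure D5:**
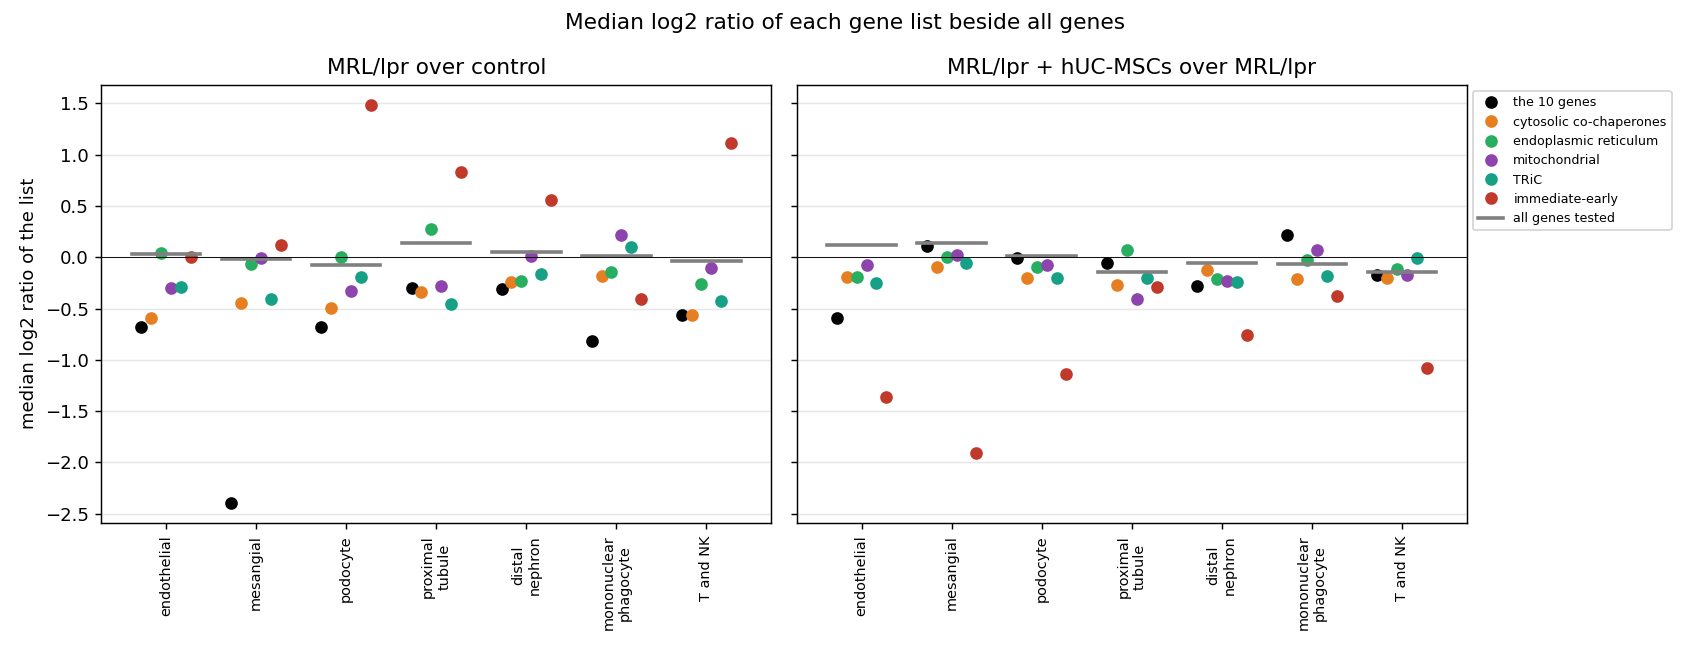
Median log2 ratio (vertical axis) of the 10 genes, 4 lists of other chaperones and the immediate-early genes in 7 classes (horizontal axis), with a grey bar for all genes tested, for MRL/lpr over control on the left and MRL/lpr + hUC-MSCs over MRL/lpr on the right. In mesangial-like cells the 10 genes stood at -2.39 on the left, and the immediate-early genes at -1.91 on the right.

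The genes whose levels followed the members most closely were found over 29 points, each a class in a library, by Pearson's r of log2 levels among 12334 genes. They were all classes with at least 30 cells, so that 3 erythroid-like, 2 neutrophil-like, 2 smooth muscle and renin-like and 1 dendritic-like point entered. Points from 1 library share its preparation and depth. For Hspa1a the nearest were Hspa1b (0.91), Dnajb1 (0.90), Tmem204 (0.88), Nrp1 (0.88) and Cyp20a1 (0.87). Hspa8 was nearest to Dnaja1 (0.92), Hsp90aa1 (0.88), Hsp90ab1 (0.87), Snu13 (0.86) and Dnttip2 (0.84). Hspa5 was nearest to Ppp2ca (0.93), Arf4, Ube2k, Pip4p1 and Tmed10 (0.91 each). Hspa1a and Hspa8 had 0.74 with each other, and Hspa5 had 0.40 with Hspa1a and 0.70 with Hspa8. Without the erythroid-like points (26 points, chosen after seeing the data) Hspa1a had the same 5 nearest genes. Dnajb1 (0.82) and 4930481A15Rik (0.83) stood among the 5 of Hspa8 in place of Snu13 and Dnttip2, and Os9 (0.80) and Pdia3 (0.78) among those of Hspa5 in place of Pip4p1 and Tmed10. The r of Hspa5 was then 0.51 with Hspa1a and 0.57 with Hspa8.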

How the data were processed

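Processed files of 3 droplet libraries were used. The authors deposited counts: matrices of UMI counts for 32285 genes and 6794880 listed barcodes, empty droplets included, with no normalization. The labels name STAR, Cell Ranger and mm10. The methods and the file headers give different Cell Ranger versions. Total UMIs were 94903163 (control), 103319588 (MRL/lpr) and 90812138 (MRL/lpr + hUC-MSCs), so counting error was small in large classes and wide in classes under 100 cells.

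Barcodes with at least 1000 UMIs and at most 10% mitochondrial UMIs were kept. A class needed at least 4 UMIs from 2 or more of its markers, at 1.5 or more times the amount that free RNA (droplets of at most 100 UMIs) would give, and barcodes of several classes, which include doublets, were left out. These limits were set after class sizes under other limits had been seen. The study's 5% ribosomal limit and doublet removal were alternatives only. Classes with 30 or more cells in all 3 libraries were compared. UMIs were summed per class and library and divided by the class total. Ratios used genes with 50 or more UMIs over both libraries, with exact conditional binomial intervals, and the Woolf interval for ratios of ratios. Levels had exact Poisson intervals and shares exact binomial ones, at 95%. A gene was counted as lower or higher at 2-fold. The free RNA share of a class was the median over markers of other classes of their level relative to empty droplets. All 10 genes are named. From each list up to 4 genes with the largest ratio at 50 or more UMIs could be named, and the 5 genes most like Hspa1a, Hspa8 and Hspa5. Fas, Fos and 6 leading genes each of mononuclear phagocyte-like and mesangial-like cells were named outside that rule, after their values were seen. The likeness used log2 levels plus a pseudocount of 1, for genes with 500 or more UMIs.

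The members and gene lists were chosen with earlier results of these data known. The gate limits, the Ehd3 and Plvap subsets, the Hspa1b over Hspa1a ratio, leaving out erythroid-like cells, free RNA subtraction beyond endothelial-like cells, and the classes and directions whose shares of all genes are quoted were chosen after seeing the data. Of the gene identifiers, 99.6% were found in GENCODE M21, from which gene coordinates were taken. Interval code was tested on simulated data. Computation was in Python 3.11.15 with scipy 1.17.1, numpy 2.4.6 and pandas 2.3.3. Doublets were scored with Scrublet in scanpy 1.11.5, and plots drawn with matplotlib 3.10.9.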

Additional observations from a re-analysis of the deposited data

Results flagged for a closer look

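Several of the 10 genes had ratios of opposite sign in endothelial-like cells and in another class, by at least 1 in log2 and with both counting intervals clear of 0. With 1 library per group these differences were not tested. In MRL/lpr + hUC-MSCs over MRL/lpr, the endothelial-like minus the mesangial-like log2 ratio was -1.93 for Hsph1, -1.79 for Hspa1b, -1.68 for Dnajb1, -1.17 for Hsp90aa1 and -1.02 for Hspa1a. Against mononuclear phagocyte-like cells it was -1.88 for Hspa1b, -1.80 for Hspa1a, -1.79 for Dnajb1, -1.32 for Hspa8 and -1.06 for Hsph1. Against proximal tubule-like cells it was -1.26 for Hspa1b, -1.20 for Hspa1a and -1.15 for Hspb1, and against T and NK-like cells -1.02 for Hspd1. Proximal tubule-like cells numbered 66 in the treated library, and free RNA would give most of their Hspa1 sum in both MRL/lpr libraries. With free RNA subtracted, their own ratios moved from 1.11 to 1.45 for Hspa1b, from 0.48 to 0.50 for Hspa1a and from 0.34 to 0.80 for Hspb1. In MRL/lpr over control, the endothelial-like minus the T and NK-like ratio was -1.38 for Hspa1a, -1.26 for Hspa1b and -1.05 for Hspb1, where free RNA alone would give 76.4% to 125% of the T and NK-like level of Hspb1 or of the Hspa1 sum. Against proximal tubule-like cells, with 50 cells in control, it was -1.45 for Dnajb1.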

How the results depend on the processing

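Direction held for the Hspa1a plus Hspa1b sum in endothelial-like cells under every alternative given here, though cells with Plvap and without Ehd3, which are not among them, had 3119 and 3137 CPM in untreated and treated MRL/lpr. All 20 member ratios of that class, 10 for each comparison, were below 0 under each of the 10 alternatives run on all members. Over these alternatives 107 ratios moved outside the counting interval of the main ratio and 93 stayed within it. Under the 5% ribosomal limit 19 of the 20 moved, by up to 1.14. With free RNA subtracted 19 moved, by up to 0.11. Centring on the median moved 17, by up to 0.12, and the doubled gate moved 16, by up to 0.18. The sum was -0.80 in MRL/lpr over control. It was -0.79 with at least 2500 UMIs, -0.85 with 200 to 3000 genes per barcode, -0.78 without Scrublet doublets, -0.71 with free RNA subtracted, -0.76 scaled without mitochondrial, ribosomal and haemoglobin genes, -0.83 centred on the median of all genes, -0.86 with cells weighted equally, -0.73 with the gate doubled and -0.76 in Ehd3 cells without Plvap, a subset chosen after seeing the data. For treated over untreated MRL/lpr it was -0.53, and in the same order, leaving out the gene limits and Scrublet, -0.50, -0.59, -0.51, -0.65, -0.54, -0.64 and -0.58. Relative to Hspa8 the first contrast was -0.11, and it was -0.15 with the gene limits, -0.0899 with free RNA subtracted, -0.15 with equal weights, -0.08 with the gate doubled and -0.0898 in Ehd3 cells. The second was 0.62, and it was 0.66, 0.64 and 0.54 with the gene limits, equal weights and the doubled gate. A limit of 5% ribosomal UMIs left 45, 42 and 60 endothelial-like cells. It gave -0.93 and -1.25 for the sum and -0.44 and -0.11 relative to Hspa8, the last of which turned sign with an interval that held 0. In the other classes, mesangial-like cells included, free RNA subtraction was the only alternative run. It gave sums of -2.08 and 2.23 in mononuclear phagocyte-like cells and of -1.44 and 0.98 in proximal tubule-like cells, with direction kept. In T and NK-like cells the treated ratio turned from -0.01 to 0.60, and no value was left for control. No paired analysis was possible because each group is 1 library. Depth limits proximal tubule-like, podocyte-like and phagocyte-like ratios in the libraries with few such cells.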
